A study of Mus musculus with 13 samples.

Results

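Cassette exons whose length is not a multiple of 3 shift the reading frame when they are skipped or included, and 6339 such exons of mouse cerebellum are described here across 5 groups of RNA-seq libraries. They are the exon events of 28 to 300 nt with a length not divisible by 3, 10 or more informative reads in 4 or more of the 13 libraries, and an average PSI in the libraries so read between 5 and 95. PSI, percent spliced in, is the share of a gene's transcripts that include the exon, as estimated from reads across its splice junctions. They were 6339 of the 54141 exon events in the deposited table of 283765 splicing events, and they lay in 4168 host genes. Because PSI chose the members, their average inclusion is a description. Age and genotype differences were not a criterion, but mean PSI pools all groups. An exon outside the PSI limits in some groups could thus become a member through the others.

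All mice were C57BL/6, and the tissue was cerebellum. The knockout groups lack Sam68, an RNA-binding protein that regulates splicing and is the product of Khdrbs1, and were taken at postnatal day 1 (KO P1, 3 libraries) and day 10 (KO P10, 3 libraries). The wild-type groups were taken at day 1 (WT P1, 2 libraries), day 10 (WT P10, 2 libraries) and day 30 (WT P30, 3 libraries), with no knockout library at day 30. The labels do not say whether each library came from its own animal, so p-values measure only the spread between these libraries. The knockout is not described as restricted to a cell type in the labels, and whole cerebellum was sampled, so fewer cells of a type and less RNA per cell cannot be told apart.

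Ribosomes read an mRNA in triplets, so adding or removing an exon of such a length changes every codon after it and usually brings a stop codon into the new frame. When that stop lies well upstream of the last exon junction, the exon junction complexes left downstream mark the transcript for nonsense-mediated mRNA decay, or NMD. A poison exon carries the stop itself, and its inclusion removes transcripts; many genes of SR proteins and other splicing factors contain one and use it to hold their own level. In mutually exclusive pairs, by contrast, each transcript takes one or the other of a pair of frame-shifting exons, so the frame is kept and only the encoded peptide segment differs; the flip and flop exons of AMPA receptor subunits are the textbook example.

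The sequences that carry the main results are given first, from GENCODE M21 transcripts (GRCm38), with mm9 coordinates as in the deposited files. The pairs of Cacna1a and Gria1 are shown because their exons replaced each other with age; capitals mark bases that differ from the partner exon.
Cacna1a first exon, 97 nt, chr8:87138594-87138690 (+): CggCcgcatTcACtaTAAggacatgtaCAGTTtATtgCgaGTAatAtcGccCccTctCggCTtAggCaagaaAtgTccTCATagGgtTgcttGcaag
Cacna1a second exon, 97 nt, chr8:87139473-87139569 (+): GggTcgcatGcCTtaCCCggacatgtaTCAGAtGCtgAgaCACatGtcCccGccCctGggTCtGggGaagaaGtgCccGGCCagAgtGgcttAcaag
Gria1 first exon, 115 nt, chr11:57123271-57123385 (+): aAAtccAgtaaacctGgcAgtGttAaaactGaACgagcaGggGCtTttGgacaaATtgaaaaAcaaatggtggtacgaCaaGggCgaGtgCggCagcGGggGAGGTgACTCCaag
Gria1 second exon, 115 nt, chr11:57124110-57124224 (+): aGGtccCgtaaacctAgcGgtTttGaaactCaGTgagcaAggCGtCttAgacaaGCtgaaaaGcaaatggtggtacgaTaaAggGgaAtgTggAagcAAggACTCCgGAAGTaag
The Cacna1a exons were identical at 60 of 97 bases (61.9%) and the Gria1 exons at 79 of 115 (68.7%).

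Exons with a stop codon inside are shown up to that stop, which is in capitals, because inclusion of either ends the open reading frame early.
Prpf39 100 nt exon, chr12:66156421-66156520 (+): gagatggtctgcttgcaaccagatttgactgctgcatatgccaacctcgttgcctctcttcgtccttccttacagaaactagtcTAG
Rbm39 73 nt exon, chr2:156004616-156004688 (-): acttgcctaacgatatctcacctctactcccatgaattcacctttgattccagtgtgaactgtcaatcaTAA

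The last set shows exons called by a wide margin with age or with loss of Sam68 outside such pairs; capitals mark bases of codons that the exon's ends split.
Dlgap4 80 nt exon, chr2:156573759-156573838 (+): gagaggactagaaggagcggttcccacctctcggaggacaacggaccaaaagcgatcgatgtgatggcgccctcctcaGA
Camkk2 43 nt exon, chr5:123186997-123187039 (-): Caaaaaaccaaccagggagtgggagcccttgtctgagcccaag
Kcnma1 29 nt exon, chr14:24125947-24125975 (-): TgcaacaaggatgactagaatgggccaaG
Zdhhc18 103 nt exon, chr4:133168838-133168940 (-): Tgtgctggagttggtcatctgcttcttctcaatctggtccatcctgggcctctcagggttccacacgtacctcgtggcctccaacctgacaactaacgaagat

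Most of these exons were included in the larger share of transcripts. Their median mean PSI was 81.0, and 3259 of them (51.4%) lay above 80, 1988 (31.4%) between 20 and 80 and 1092 (17.2%) below 20. The 4913 exons of the same size range whose length is a multiple of 3, called frame-preserving below, had a median of 70.8, with 2052 (41.8%) above 80 and 1906 (38.8%) between 20 and 80. Of exons with enough reads, 24.3% of the frame-shifting and 27.5% of the frame-preserving ones had a mean PSI of 5 to 95. The members just inside the PSI limits had 5.007 and 94.998 and those just outside 4.997 and 95.003, and the lengths ran from 28 to 299 nt with a median of 107. Inclusion varied little within groups: the median within-group SD was 3.94 points of PSI for frame-shifting and 3.80 for frame-preserving exons, on a median of 96 and 117 reads per exon and library.

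Across groups the median of exons read in all 13 libraries was 81.4 in KO P1, 81.6 in KO P10, 81.2 in WT P1, 81.9 in WT P10 and 84.8 in WT P30. The frame-preserving exons had 70.2, 69.6, 69.7, 69.3 and 74.0 in the same groups. Both kinds of exon therefore had their highest median at P30. Of the frame-shifting exons, 5092 were read in all 13 libraries and 92 in the minimum of 4, while 142 exons with only 3 libraries were left out. By the table's own classes, 3841 (60.6%) were simple events between a fixed pair of neighbours.

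Mean PSI, a measure that also chose the members, ran from mostly high to mostly low between the reading-frame classes. A GENCODE M21 transcript of the same gene, exon length and flanking intron lengths was found for 4280 exons (67.5%), and the frame was then read with and without the exon. In 2617 of them (61.1%) the annotated coding sequence contained the exon, and skipping it gave a premature stop, one at least 50 nt before the last junction, in 2262. These exons had a median mean PSI of 88.9, with quartiles of 79.2 and 93.0. In 437 exons (10.2%) only the form without the exon was coding, and these had a median of 17.9 with quartiles of 9.88 and 38.8.

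Among the second kind, inclusion of 360 gave a premature stop, and these are called poison-type wherever that stop lies. The poison-type exons had a median PSI of 17.1. In 276 of them (76.7%) the stop lay inside the exon, as TGA in 139, TAA in 71 and TAG in 66. The poison-type exons of Scn1a (64 nt) and Luc7l (71 nt) named below hold no in-frame stop themselves. The annotation lists 227 of the 360 (63.1%) as NMD transcripts when included. A further 234 exons (5.47%) belonged to coding transcripts in both forms, with a median PSI of 72.8, and 425 (9.93%) lay in 5′ UTRs, where no frame is at stake, with a median of 51.5. Of 3547 matched frame-preserving exons, 1157 (32.6%) were coding in both forms, 144 gave a premature stop on inclusion and 11 on skipping. Since the annotation was itself built from transcripts, abundant forms are more likely to be in it; the part of that in these differences was not tested.

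**Figure D1:**
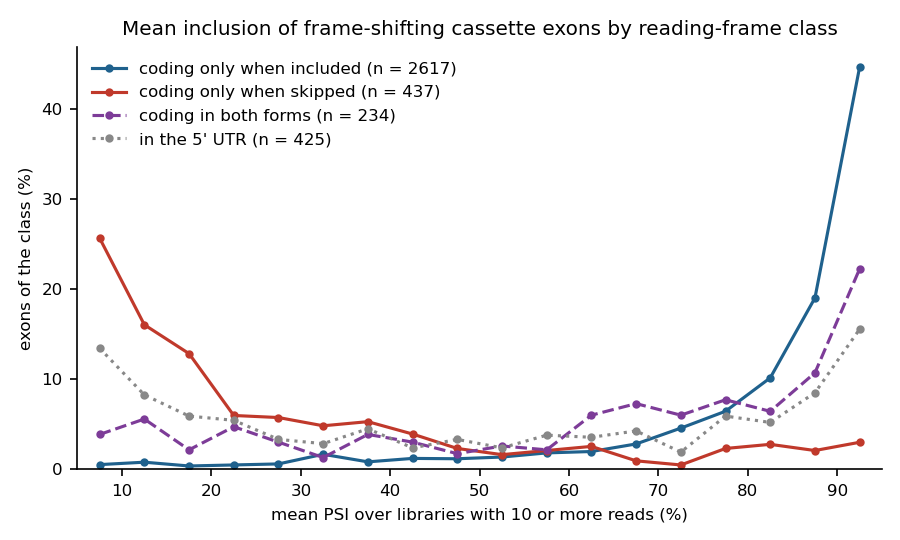
Percent of the frame-shifting exons of each reading-frame class (y axis) by mean PSI over libraries in bins of 5 points (x axis); each line is a class, with 2617 exons coding when included, 437 coding when skipped, 234 coding in both forms and 425 in 5′ UTRs. Exons coding when included pile up above 80 (median 88.9), exons coding when skipped lie mostly below 40 (median 17.9), and 5′ UTR exons spread over the whole range.

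Many of these exons neighbour each other in their gene. Of 1154 neighbouring pairs of members in the same gene, 587 (50.9%) had a summed length that is a multiple of 3. In 204 pairs from 181 genes that sum was a multiple of 3 and the exons moved as a unit, with PSI within 10 points on average and a correlation over libraries above 0.5. On the distance in PSI alone, 258 close pairs had such a sum and 222 did not. Pairs with other sums that also met the correlation limit were not counted, so the 204 have no comparison. The 205 and 116 nt exons of Nfasc, the axonal adhesion molecule neurofascin, are an example: their PSI differed by 3.14 points on average and correlated with r = 0.997 over 13 libraries that share the same reads' depth. In 40 pairs from 40 genes the exons instead replaced each other. Their lengths leave the same remainder after division by 3, and their mean summed PSI was 80 to 120. Their correlation lay below -0.5, and each exon ranged over at least 10 points of PSI across libraries. These pairs were chosen by their PSI, so the values describe them.

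Of the 40 replacing pairs, 16 had exons of equal length. The AMPA receptor subunits Gria1, Gria2 and Gria3 had mean PSI of 28.7, 34.4 and 20.1 for the first exon and of 84.5, 82.1 and 87.1 for the second. The calcium channel genes Cacna1a, Cacna1d and Cacna1c had 43.0, 35.7 and 8.4 for the first and 47.7, 72.9 and 82.8 for the second. The tropomyosin genes Tpm1 and Tpm2, whose products line actin filaments, used the first exon almost alone at 92.8 and 94.4, against 8.1 and 6.7 for the second. Sums near 100, such as 101.1 in Tpm2 and 99.8 in the phospholipid flippase gene Atp8a1 stood beside 116.5 in Gria2. The exons of such a pair are related in sequence, and reads that align to both were not examined.

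The reads behind these values came to 1042774 to 1843050 per library on the members and 10538517 to 18423325 on all exon events. Khdrbs1, whose loss defines the knockout, had 5.42, 4.22 and 8.50 cRPKM in KO P1 and 2.06, 1.28 and 3.59 in KO P10, against 56.5 and 74.4 in WT P1 and 61.2 and 56.2 in WT P10; WT P30 had 31.4, 29.5 and 36.8. cRPKM is the deposited measure of gene level, a name used in the field for reads per kilobase of mappable transcript, scaled to library size. KO P1 library 15 stood apart in that table: 988 host genes were listed at 0 in it, against 66 to 448 in the other 12 libraries. Cerebellar markers were present in every group, and the levels of several lists moved strongly with age. Markers of proliferating granule cell precursors summed to 5.54 to 8.67 cRPKM in WT P30 against 101 to 227 in WT P1 (5 of 6 fell), Purkinje cell markers to 1306 to 1581 against 107 to 218 (4 of 4 rose), granule cell markers to 1454 to 1677 against 438 to 770 (3 of 8 rose, 1 fell), and oligodendrocyte markers to 3407 to 4241 against 94.3 to 117 (4 of 6 rose, 1 fell). None of 46 markers tested passed between knockout and wild type at either age by limma (14 had an unadjusted p below 0.05 at P1 and 3 at P10), and choroid plexus markers ranged over 277 to 650 in KO P10 and 1.31 to 271 in WT P10. Midbrain and caudal hindbrain markers summed to 2.82 to 6.04 cRPKM in WT P30 against 22.05 to 25.75 in WT P1 (3 of 6 fell). Choroid plexus markers ranged over 2.58 to 1102 within WT P30 and 2.95 to 12.87 within WT P1. No microglia or red blood cell marker was called between WT P30 and WT P1. The part of cell composition in the age and genotype differences below was not tested.

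More of these exons were called between ages than between genotypes. An exon is called changed when its adjusted p (limma on the log2 odds of inclusion, Benjamini-Hochberg over all events) is below 0.05 and its mean PSI differs by at least 10 points. Between WT P30 and WT P1, 650 of 5378 tested frame-shifting exons were called (12.1%), against 9.97% of all events, with 409 higher and 241 lower at P30; 7.61% were higher and 4.48% lower, against 6.11% and 3.86% of all events. Of the frame-preserving exons, 866 of 4237 were called (20.4%), and the difference between both kinds was not tested. Between WT P30 and WT P10, 199 of 5581 were called (3.57%, against 2.96% of all events), 145 higher and 54 lower (2.60% and 0.968%, against 2.05% and 0.912% of all events). Between WT P10 and WT P1, 31 of 5545 were called (0.559%, against 0.646% of all events), 18 higher and 13 lower, where 0.355% and 0.291% of all events were. In the knockout, P10 differed from P1 at 45 of 5806 exons (0.775%, against 0.857% of all events), 26 higher and 19 lower, where 0.444% and 0.413% of all events were. The comparisons share libraries: both wild-type comparisons with P1 use the same 2 WT P1 libraries, and those of P30 the same 3 WT P30 libraries.

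**Figure D2:**
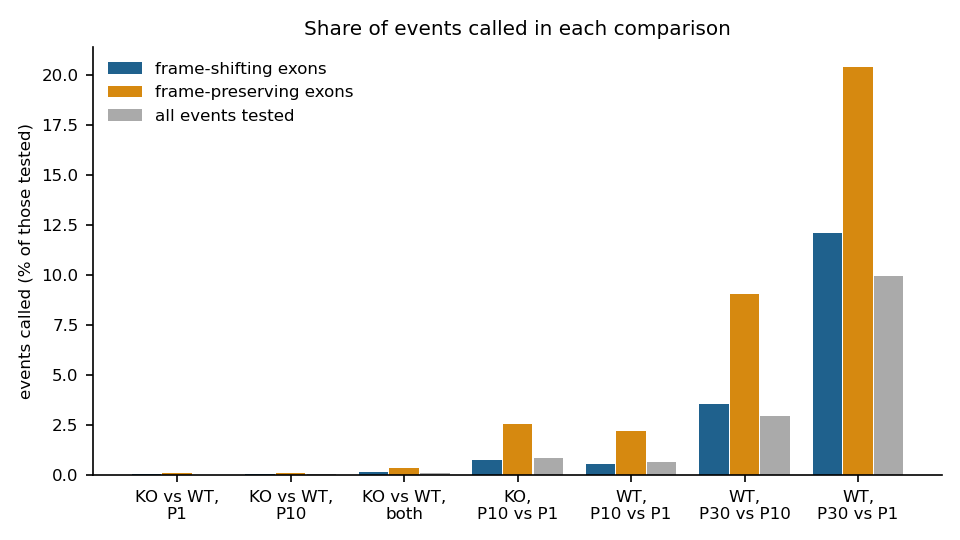
Percent of tested events called changed (y axis) in 7 comparisons (x axis) for frame-shifting cassette exons, frame-preserving cassette exons and all splicing events. WT P30 against WT P1 stands highest with 12.1%, 20.4% and 9.97%, and every comparison of knockout with wild type lies below 0.4%.

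By reading-frame class, exons whose skipping gives a premature stop rose at P30 against P1 in 128 and fell in 83 of 1952 tested (6.56% and 4.25%). Exons whose inclusion gives one rose in 27 and fell in 20 of 323 (8.36% and 6.19%). Exons coding in both forms rose in 25 and fell in 13 of 213 (11.7% and 6.10%). Those with a later stop rose in 65 and fell in 21 of 528 (12.3% and 3.98%), and 5′ UTR exons in 28 and 11 of 377 (7.43% and 2.92%). The later-stop group overlaps the group coding in both forms: it includes the 181 of those 234 members whose stop is late. Over all frame-shifting exons 7.61% rose and 4.48% fell, beside 6.11% and 3.86% of all events. Over all tested exons, called or not, the median difference between P30 and P1 was 2.14 points for exons whose skipping gives a premature stop, -0.55 for those whose inclusion gives one, 2.29 for those coding in both forms, 3.41 for those with a later stop and 0.995 for 5′ UTR exons, beside 1.66 over all frame-shifting exons. The median of exons whose inclusion gives a premature stop thus ran against the larger count of called rises in that class; differences between classes were not tested.

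Voltage-gated channels had called exons in both directions: of 25 tested, 5 rose and 5 fell at P30 against P1. That is 40.0% called, beside 12.1% of all frame-shifting exons and 9.97% of all events. Differences between the gene lists and these shares were not tested. Cacna1a encodes the pore subunit of the P/Q-type calcium channel that drives transmitter release and Purkinje cell firing, and its pair of 97 nt exons encodes alternative forms of an EF-hand-like stretch of the C terminus. PSI of the first exon was 12.8 and 8.21 in WT P1, 55.7 and 42.5 in WT P10, and 92.2, 90.8 and 89.5 in WT P30. The second exon had 72.3 and 62.5 in WT P1, 41.5 and 50.4 in WT P10, and 7.96, 9.48 and 10.4 in WT P30. The groups did not overlap at any age and the exons changed places, with WT P10 in between. The difference between WT P30 and WT P1 was 80.3 points for the first (adjusted p = 7.63e-07 by limma) and -58.1 points for the second (adjusted p = 1.87e-06), while Cacna1a itself had 84.0, 82.0 and 69.4 cRPKM in WT P30 against 20.2 and 18.4 in WT P1.

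Cacna1e, the R-type calcium channel gene, also has a 97 nt member, and it was included at 8.88 and 18.8 in WT P1, 21.03 and 20.15 in WT P10, and 80.1, 67.2 and 70.6 in WT P30. Its rise came after P10, by 52.0 points between P30 and P10 (adjusted p = 0.00736; 0.0919 at the highest when WT P10 library 5 or 6 is left out). Kcnma1 encodes the pore subunit of the large-conductance calcium-activated potassium channel. Its 29 nt exon, coding in both forms, had 9.53 and 2.69 in WT P1, 15.2 and 22.8 in WT P10, and 62.0, 60.3 and 62.6 in WT P30, 55.5 points higher at P30 than at P1 (adjusted p = 0.000104).

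The sodium channel genes each carried a frame-shifting member. The 92 nt exon of Scn2a1 fell to 0.36, 0.52 and 0.61 in WT P30, against 23.1 and 23.7 in WT P1 (adjusted p = 1.54e-06), while Scn2a1 rose by 1.36 on the log2 scale of cRPKM + 1 (adjusted p = 0.00247). The 92 nt exon of Scn8a had 90.7, 94.4 and 95.9 in WT P30 against 74.4 and 74.5 in WT P1, 19.2 points higher (adjusted p = 0.00360). Both belong to the alternative exon region known from neonatal and adult forms of these channels. The 64 nt exon of Scn1a is of the poison type: its inclusion was 2.82, 6.67 and 5.64 in WT P30 against 50.7 and 28.2 in WT P1, 34.4 points lower (adjusted p = 0.00984), and Scn1a rose by 1.81 on the log2 scale (adjusted p = 0.00162). Other called channel exons included those of Kcnip1, a potassium channel-interacting protein gene, 10.1 points lower, and of the calcium channel subunit gene Cacnb3, 11.5 points higher.

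Synaptic proteins had 10 exons that rose and 5 that fell at P30 against P1 among 49 tested (30.6% called, beside 12.1% of all frame-shifting exons). Dlgap4 encodes a scaffold of the postsynaptic density that binds PSD-95 family proteins, and skipping its 80 nt exon gives a premature stop. PSI was 29.4 and 35.8 in WT P1, 78.2 and 65.7 in WT P10, and 99.16, 99.01 and 98.85 in WT P30, so that the 3 ages did not overlap. The difference between P30 and P1 was 66.4 points (adjusted p = 1.29e-07), while the host level did not pass the test, at 33.3, 25.7 and 28.2 cRPKM in WT P30 and 31.5 and 32.0 in WT P1 (log2 difference -0.13, adjusted p = 0.746).

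In Gria1 the flip exon, the first of the pair, had 51.5 and 47.8 in WT P1, 17.4 and 15.9 in WT P10, and 11.6, 11.8 and 9.58 in WT P30. The flop exon had 69.5 and 73.6 in WT P1, 91.8 and 90.9 in WT P10, and 94.8, 95.6 and 96.5 in WT P30. Most of the exchange had taken place by P10: flip was 33.0 points lower (adjusted p = 0.000188) and flop 19.8 points higher (adjusted p = 0.00141) in WT P10 than in WT P1, and 38.7 points lower and 24.1 points higher in WT P30 (adjusted p = 1.08e-06 and 2.49e-06). Gria1 rose by 1.89 on the log2 scale between P1 and P30 (adjusted p = 5.34e-06).

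Scaffold genes of the membrane-associated guanylate kinase family had exons that changed in opposite directions. Dlg1 had a 97 nt exon 35.6 points lower (adjusted p = 0.000654) and a 34 nt exon 20.5 points higher at P30 than at P1 (adjusted p = 0.00434). Dlg2 had a 100 nt exon 15.3 points lower and a 46 nt exon 15.5 points higher, whose mean PSI of 13.05 and 86.95 sum to 99.99. Dlg4, encoding PSD-95, had a 110 nt exon 11.3 points higher (adjusted p = 0.000102). Skipping that exon gives a premature stop. Of the others, Stx3, a plasma membrane SNARE gene, rose by 35.6 points, Shank2, a postsynaptic scaffold gene, by 33.4 and Nrxn2, a presynaptic adhesion gene, by 23.1.

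Genes of the cytoskeleton, motors and adhesion had 5 exons that rose and 4 that fell among 26 tested (34.6% called, beside 12.1% of all frame-shifting exons). The 34 nt exon of Add1, which encodes the actin-capping protein adducin, was included at 77.7 and 67.9 in WT P1, 53.2 and 57.2 in WT P10, and 27.98, 28.94 and 30.08 in WT P30, a fall of 43.8 points between P1 and P30 (adjusted p = 5.39e-06). Its host level was 70.8, 65.7 and 68.9 cRPKM in WT P30 and 73.5 and 86.0 in WT P1, with no call. The 139 nt exon of Dnm1, the neuronal dynamin gene, was 28.1 points lower at P30. In Dnm2, the ubiquitous dynamin gene, a pair of 139 nt exons moved apart, the first by 40.3 and the second by -20.2 points.

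Nfasc did not follow a straight course. Its 116 nt exon had 6.72 and 3.89 in WT P1, 49.3 and 45.4 in WT P10, and 25.59, 29.99 and 28.63 in WT P30, and the 205 nt exon ran beside it at 3.90 and 3.89, 45.1 and 39.5, and 21.24, 27 and 26.34. Both were highest at P10. The 116 nt exon was 42.1 points higher in WT P10 than in WT P1 (adjusted p = 8.35e-05) and 22.8 points higher in WT P30 than in WT P1 (adjusted p = 7.31e-05).

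Splicing regulators carried poison-type and other frame-shifting exons in both directions. Of 18 tested exons in SR protein genes, 2 rose and 2 fell at P30 against P1 (22.2% called). Of 38 in genes of the core spliceosome and splicing kinases, 0 rose by limma (3 higher ones had an unadjusted p below 0.05) and 3 fell (7.89%). Of 47 in genes of hnRNPs and other regulators, 3 rose and 6 fell (19.1%). The share over all frame-shifting exons was 12.1%, and over all events 9.97%. The 3 of the core list were in Luc7l and Prpf39, which encode proteins of the U1 snRNP or related to it, and in U2af1, the subunit that reads the AG of the 3′ splice site. The 71 nt poison-type exon of Luc7l had 87.2 and 74.3 in WT P1, 38.9 and 71.1 in WT P10, and 25.2, 13.2 and 19.3 in WT P30, with all 3 WT P30 libraries below the others. It was 61.6 points lower at P30 than at P1 (adjusted p = 0.00838; 0.103 without WT P1 library 8), and Luc7l itself was 0.60 lower on the log2 scale (adjusted p = 0.0366).

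The 100 nt exon of Prpf39, which carries the TAG shown above, had 46.3 and 39.5 in WT P1, 12.2 and 14.8 in WT P10, and 14.6, 9.11 and 15.6 in WT P30. It was 29.8 points lower at P30 than at P1 (adjusted p = 0.00171), and it was 29.4 points lower at P10 than at P1 (adjusted p = 0.0254; up to 0.227 without any 1 of the 4 libraries). U2af1 has a 67 nt exon that was 27.7 points lower (adjusted p = 0.00691; 0.0944 without WT P1 library 8), and U2af1 fell by 1.16 on the log2 scale. The stop-bearing exon of Rbm39, encoding a splicing factor related to U2AF, was 24.4 points lower (adjusted p = 0.00500).

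Among SR protein genes, the 79 nt poison-type exon of Srsf9 had 18.1, 24.9 and 22.7 in WT P30 against 6.59 and 3.82 in WT P1, 16.7 points higher (adjusted p = 0.000162), beside 7.69, 10.3 and 15.1 cRPKM in WT P30 and 14.5 and 28.7 in WT P1. The 104 nt exon of Srsf2, which lies in the annotated 3′ UTR, had 14.5, 27.3 and 25.2 in WT P30 against 7.15 and 3.10 in WT P1, 17.2 points higher (adjusted p = 0.0425). Between WT P30 and WT P10 it was 18.99 points higher (adjusted p = 0.0345; up to 0.342 without WT P10 library 5 or 6 or WT P30 library 2 or 3). Exons of Srsf7 and Srek1 were 10.99 and 38.7 points lower, and both calls ended without WT P1 library 8 or 9 and without some of the WT P30 libraries (adjusted p up to 0.122 and 0.208).

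Of the other regulators, Elavl2, a neuronal RNA-binding protein gene, had a 91 nt exon at the start codon with 65.4, 68.2 and 63.1 in WT P30 against 41.2 and 27.8 in WT P1, 31.1 points higher (adjusted p = 0.00168) as the gene fell by 2.58 on the log2 scale. The 62 nt exon of Rbm25 had 14.3, 20.6 and 15.7 in WT P30 against 3.88 and 4.38 in WT P1 (adjusted p = 0.000146). Mbnl2, Mbnl1 and Rbfox2, regulators of neuronal and muscle splicing, had exons of 95, 95 and 40 nt that were 29.5, 12.6 and 18.8 points lower at P30, and the 53 nt exon of Hnrnpm was 22.2 points lower. The NMD and exon junction complex list had 8 exons tested, of which 1 rose and 2 fell (37.5% called, beside 12.1% of all frame-shifting exons). The 122 nt 5′ UTR exon of Rnps1 rose by 21.2 points (adjusted p = 0.00116 by limma). Exons of Dhx34 and Acin1 fell by 20.6 and 10.4 points. The Dhx34 and Acin1 calls ended when single libraries were left out, with adjusted p up to 0.277 and 0.131.

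Several of the largest changes lay outside these lists. The 43 nt exon of Camkk2, a calcium/calmodulin-dependent kinase kinase gene, had 14.9 and 20.5 in WT P1, 72.2 and 72.6 in WT P10, and 99.5, 99.4 and 97.2 in WT P30, the largest rise among members called between P30 and P1 (81.0 points, adjusted p = 1.64e-05). Both forms are annotated as coding and differ at the C-terminal side of the frame shift. Crtc3, a coactivator of the transcription factor CREB, had a 101 nt exon with 97.99, 100 and 100 in WT P30 against 26.9 and 42.4 in WT P1, 64.7 points higher. The largest fall was in Usp54, a gene of the ubiquitin-specific peptidase family, whose 196 nt exon had 46.6, 25.1 and 26.6 in WT P30 against 97.9 and 94.4 in WT P1 (-63.4 points, adjusted p = 1.42e-05). Dtnbp1, encoding dysbindin of the endosomal BLOC-1 complex, had a 260 nt exon with 8.92, 7.74 and 12.9 against 69.6 and 70.9 (-60.4 points, adjusted p = 3.07e-06).

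Some genes had runs of frame-shifting exons that moved together. Solh, also known as calpain 15, had 4 called exons that rose, from 14.8 points (184 nt) to 65.1 points (289 nt), of which the 184 and 209 nt calls ended without WT P1 library 8 (adjusted p up to 0.0541 and 0.182), and Cenpp, encoding a centromere protein, had 3 that rose by 58.0 to 71.4 points. Cenpp was listed at 0 cRPKM in KO P1 libraries 13 and 15 and KO P10 library 11, and its 94 nt exon rested on 14 to 61 reads per library. Tmem194b had 4 exons that rose by 19.7 to 67.8 points, and the calls of all 4 ended without WT P1 library 8.

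Poison-type exons that rose at P30 included those of chromatin and RNA genes whose level fell. The 82 nt exon of Ezh2, the methyltransferase of the Polycomb repressive complex, was 19.6 points higher (adjusted p = 4.41e-05) and Ezh2 2.10 lower on the log2 scale. Ddx39, an RNA helicase gene, had a 59 nt exon 24.5 points higher and a level 1.57 lower, and Whsc1, a histone methyltransferase gene, a 95 nt exon 22.6 points higher and a level 1.84 lower. Other genes went against that pairing: the 79 nt exon of Sphkap, encoding an A-kinase anchoring protein, was 30.1 points higher while the gene was 2.30 higher, and the 127 nt exon of Ptch1, the hedgehog receptor, was 33.9 points higher with no call on the gene.

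Host gene levels beside the exons were compared for 5181 tested exons whose gene passed the expression filter. Of 402 exons that rose at P30 against P1, 67 had a host gene called higher and 54 one called lower (30.1% together); of 232 that fell, 33 and 31 (27.6%). Over all 5181 the counts were 485 and 602 (20.98%). By class, the median host log2 difference was 0.27 for 127 exons that rose and whose skipping gives a premature stop, and -0.26 for 81 that fell. For poison-type exons it was -0.43 for 27 that rose and 0.25 for 19 that fell, beside a median of -0.13 over all genes. Over all tested exons of each class, called or not, the host medians were -0.07 and -0.18. The rank correlation (Spearman's rho) of PSI difference with host difference was weak there, at 0.11 and -0.09. The genes of each class spread widely to both sides of 0. Cell composition changed over the same ages, and its part in these medians was not tested. Of 3880 host genes, 875 were called between WT P30 and WT P1 (22.6%, against 25.4% of all genes), 370 higher and 505 lower (9.54% and 13%, where 9.66% and 15.8% of all genes were).

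**Figure D3:**
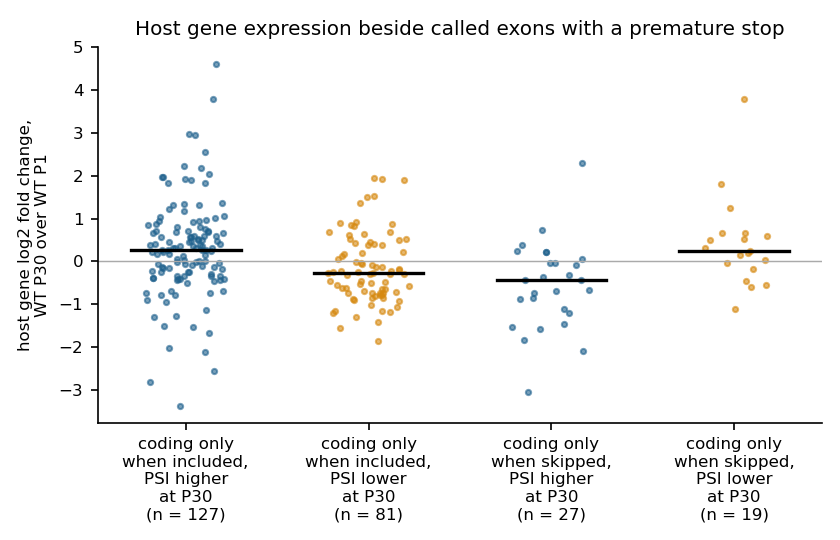
Host gene log2 difference in cRPKM + 1 between WT P30 and WT P1 (y axis) for called exons in 4 columns (x axis): exons whose skipping gives a premature stop that rose (127) or fell (81), and exons whose inclusion gives one that rose (27) or fell (19); dots are exons and bars medians. The medians are 0.27, -0.26, -0.43 and 0.25, and every column spans genes that rose and genes that fell.

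Some of the exons named above also changed between P1 and P10 in the knockout. How many calls both genotypes share was not counted. The 100 nt Prpf39 exon was called between these ages in wild type but not in the knockout. It had 20.7, 24.0 and 32.4 in KO P10 against 34.6, 40.6 and 48.2 in KO P1. The interaction of genotype and age for this exon had an unadjusted p of 0.0395 by limma and did not pass the adjustment. Nor did its difference between KO P10 and WT P10 (adjusted p = 0.9997 by limma). The first Cacna1a exon had 50.5, 47.9 and 45.0 in KO P10 against 8.33, 11.2 and 4.66 in KO P1, 39.7 points higher (adjusted p = 0.000319); in wild type it was 38.6 points higher (adjusted p = 0.00529; 0.0892 without WT P10 library 5). Gria1 flip had 17.7, 17.0 and 19.3 in KO P10 against 54.1, 48.4 and 50.5 in KO P1, 33.0 points lower (adjusted p = 2.40e-05). The Nfasc 116 nt exon had 48.2, 51.4 and 50.8 in KO P10 against 3.74, 4.80 and 2.92 in KO P1, 46.3 points higher (adjusted p = 2.10e-06). The wild-type values of the same ages are given above.

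Exons called in the knockout between P10 and P1 also included those of Lmo7, a LIM domain protein gene, and Itga6, encoding integrin alpha 6. The 109 nt exon of Lmo7 had 74.5, 56.5 and 78.6 in KO P10 against 7.94, 19.1 and 2.04 in KO P1, and 65.4 and 64.7 in WT P10 against 14.3 and 15.6 in WT P1. The 130 nt exon of Itga6 had 65.3, 55.9 and 37.2 in KO P10 against 13.9, 15.6 and 8.68 in KO P1, a rise of 40.1 points (adjusted p = 0.0117; 0.0648 at the highest when 1 library is left out). Gsn, encoding the actin-severing protein gelsolin, had a 71 nt 5′ UTR exon with 40.4, 54.5 and 29.3 in KO P10 against 0.81, 0 and 0 in KO P1 (adjusted p = 2.21e-05), and 44.5 and 33.8 in WT P10 against 2.29 and 3.41 in WT P1. Oligodendrocyte markers summed to 1389 to 2671 cRPKM in KO P10 against 43.7 to 66.6 in KO P1, and their part in this exon's change was not tested.

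Loss of Sam68 changed few of these exons. At P1, 3 of 5722 tested were called between KO and WT (0.0524%, against 0.0242% of all events), 2 higher and 1 lower, where 0.0188% and 0.00537% of all events were. At P10, 4 of 5805 were called (0.0689%, against 0.0309% of all events), 2 higher and 2 lower, beside 0.0231% and 0.00771% of all events. Averaged over both ages, 7 of 5486 were called (0.128%, against 0.095% of all events), 4 higher and 3 lower, beside 0.0699% and 0.0252% of all events; of frame-preserving exons, 15 of 4318 were called (0.347%). Before adjustment, 394, 408 and 519 frame-shifting exons had p below 0.05 in the 3 comparisons (6.89%, 7.03% and 9.46%, against 4.59%, 4.47% and 6.1% of all events). All called exons had groups that did not overlap, as did 21.7% of tested exons at P1, 17.6% at P10 and 4.08% at both ages together. The 2 single-age comparisons use different libraries, and the average uses both. The called exons of Zdhhc18, Pole, Rgnef and Rbm25 had every WT group mean above 95 or below 5. They came within the PSI limits through the KO libraries, so their place among the members depended on the genotype difference.

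Zdhhc18, which encodes a palmitoyltransferase, had an averaged call that held without each library in turn. Its 103 nt exon, part of the annotated coding form, had 78.9, 81.9 and 87.1 in KO P1 against 100 and 100 in WT P1, and 89.1, 80.7 and 85.0 in KO P10 against 99.5 and 100 in WT P10. WT P30 had 100, 99.5 and 99.5. All 6 KO libraries thus lay below all 7 WT libraries. The averaged difference was -16.1 points (log2 odds -6.41 ± 0.51, SE; adjusted p = 0.000239, and up to 0.00295 with 1 library left out). At single ages the differences were -17.4 points at P1 (adjusted p = 0.00766; 0.0557 without WT P1 library 8) and -14.8 points at P10 (adjusted p = 0.0113; up to 0.0985 without KO P10 library 11 or WT P10 library 5 or 6).

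The Vps24 exons rose together. Vps24, also known as Chmp3, is a subunit of the ESCRT-III complex that cuts membrane necks. Its 115 nt exon had 56.0, 56.1 and 53.3 in KO P1 against 30.6 and 25.7 in WT P1, and 54.5, 69.1 and 51.0 in KO P10 against 16.3 and 20.8 in WT P10, an averaged difference of 33.3 points (adjusted p = 0.0165). Its 61 nt exon had 54.6, 56.8 and 63.7 against 36.3 and 27.6 at P1, and 51.7, 70.2 and 59.9 against 25.7 and 33.9 at P10, 28.6 points higher on average (adjusted p = 0.0490). Both sets of KO libraries lay above all WT libraries of either age, and the level of Vps24 differed by 0.02 on the log2 scale. The 115 nt call ended without KO P1 library 14 or any 1 of the 4 WT libraries (adjusted p up to 0.144), and the 61 nt call without any 1 of 9 of the 10 libraries (up to 0.340).

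The 95 nt exon of Eif2s3y, which encodes the Y-linked gamma subunit of translation initiation factor eIF2, had 87.4, 86.1 and 87.3 in KO P1 against 57.8 and 51.6 in WT P1, and 74.1, 80.2 and 81.4 in KO P10 against 55.7 and 61.1 in WT P10. It was 26.2 points higher on average (adjusted p = 0.0108) and 32.2 points higher at P1 (adjusted p = 0.0491). The averaged call ended without WT P1 library 8 or 9 or WT P10 library 5 (adjusted p up to 0.0995), and that at P1 without any 1 of the 5 libraries (up to 0.231). Eif2s3y has a near-identical copy on the X chromosome, so reads may be split between them and the value is uncertain. The gene had 69.1, 85.2 and 64.6 cRPKM in KO P1 against 32.9 and 47.6 in WT P1, and 84.3, 63.7 and 93.1 in KO P10 against 47.6 and 70.8 in WT P10.

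The other called exons were lower or barely included. The 86 nt exon of Pole, the catalytic subunit of DNA polymerase epsilon, had 90.9, 94.7 and 94.8 in KO P1 against 100 and 97.4 in WT P1, and 63.6 and 68.2 in KO P10 against 100 and 100 in WT P10. KO P10 library 11 had fewer than 10 reads there and was not used, and the P10 libraries held 18 and 37 reads in KO and 45 and 47 in WT. The difference was -34.1 points at P10 (adjusted p = 0.0123; up to 0.209 without WT P10 library 5 or 6) and -19.6 points on average (adjusted p = 0.00902; up to 0.0735 without WT P1 library 8 or WT P10 library 5). Rgnef, a guanine nucleotide exchange factor gene, had a 184 nt exon with 91.3, 87.3 and 79.7 in KO P1 against 100 and 96.8 in WT P1, and 95, 88 and 84.9 in KO P10 against 100 and 100 in WT P10, -11.5 points on average (adjusted p = 0.0353; the call ended without 8 of the 10 libraries, with adjusted p up to 0.192).

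Rbm25 encodes a splicing factor that works with the U1 snRNP. Its 64 nt 5′ UTR exon had 9.67, 13.1 and 16.2 in KO P10 against 2.18 and 3.30 in WT P10, 10.2 points higher (adjusted p = 0.0113), and 11.6, 10.7 and 9.10 in KO P1 against 2.88 and 3.80 in WT P1. The averaged difference of 8.69 points had an adjusted p of 0.00102 but lay under the minimum of 10 points, and the P10 call ended without KO P10 library 11 or 12 or WT P10 library 5 (adjusted p up to 0.309). A 118 nt exon of the same gene had 14.2, 29.3 and 57.4 in KO P10 against 3.38 and 10.8 in WT P10, and did not pass (averaged adjusted p = 0.123; 0.0207 without KO P10 library 10).

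**Figure D4:**
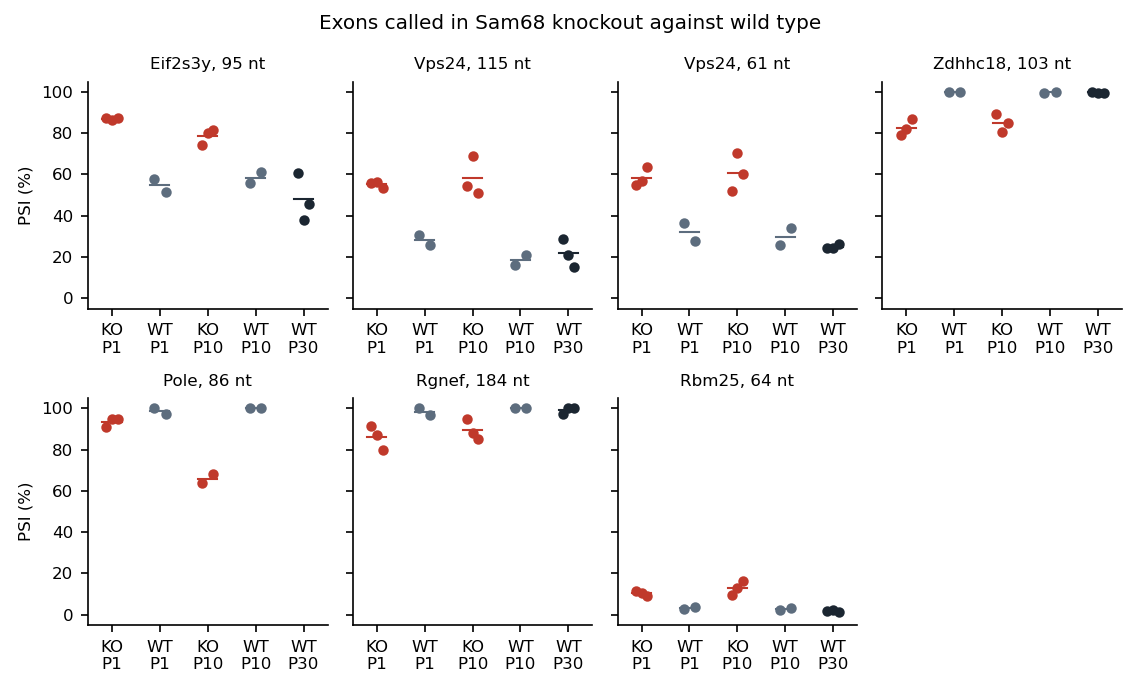
PSI in percent (y axis) of 7 frame-shifting exons called between knockout and wild type in any of the 3 comparisons, by group (x axis: KO P1, WT P1, KO P10, WT P10, WT P30); dots are libraries and lines are group means. KO libraries lie above WT libraries of the same age for Eif2s3y, both Vps24 exons and Rbm25, and below them for Zdhhc18, Pole and Rgnef; Pole has no WT P30 library with enough reads.

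By gene list, 1 of 51 tested synaptic exons was called at P1 and on average and 1 of 52 at P10, and 1 of 48 exons of hnRNPs and other regulators at P10, that of Rbm25. No exon of the NMD, SR protein, core spliceosome, cytoskeleton or channel lists was called in any of the 3 comparisons by limma, and 4, 5 and 7 of their 118 exons had an unadjusted p below 0.05 at P1, at P10 and on average. Their median differences averaged over both ages ran from -1.29 points for channels to 0.31 for the NMD list. The 97 nt exon of Dlg1 had 74.9, 78.6 and 79.1 in KO P1 against 52.8 and 67.1 in WT P1, and 65.5, 58.4 and 66.9 in KO P10 against 53.8 and 55.9 in WT P10, with an adjusted p of 0.326 for the averaged 13.2 points. Among 3880 host genes, 2 were called at P1 (0.0515%, against 0.0356% of all genes), 0 at P10 by limma (against 0.00711% of all genes; 191 had an unadjusted p below 0.05) and 1 on average (0.0258%, against 0.0356% of all genes).

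The difference between knockout and wild type was not shown to change with age for any exon. The interaction of genotype and age (P10 against P1) called 0 of 5486 frame-shifting exons by limma, where 192 (3.50%) had an unadjusted p below 0.05, and 0 of 35785 events in all (0%), where 921 (2.57%) did. For Zdhhc18 the KO-minus-WT difference was -14.8 points at P10 and -17.4 at P1.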

How the data were processed

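RNA-seq libraries of total RNA from mouse cerebellum were compared between 5 groups of 2 or 3 libraries, grouped by the titles and characteristics in the labels. The deposited PSI values are percentages, given by the authors for each splicing event and library with the inclusion and exclusion read counts behind them. The deposited gene levels are named cRPKM by the authors, a name used in the field for RPKM corrected for the mappable length of a transcript. The submitters' processing notes name FastQC, Trimmomatic and mm9; the program that made the tables is not given in the sources used here, and the deposited read counts need not be whole.

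Events with 10 or more reads in 2 or more libraries of each group compared were fitted with limma (3.58.1, R 4.3.3) on log2((inclusion + 0.5)/(exclusion + 0.5)). All 5 groups shared 1 estimate of spread, with a prior that follows mean log2 reads, and p-values were adjusted by Benjamini-Hochberg over all events tested. A call needed an adjusted p below 0.05 and a mean difference of 10 points of PSI. Gene levels were fitted as log2(cRPKM + 1) for the 14063 genes with a group mean of 1 or more, so differences of low genes are understated. The fits were tested on simulated data. An exclusion count of 0 gives log2 odds that depend on the 0.5 added.

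Exons were matched to GENCODE M21 transcripts by gene name, chromosome, strand, exon length and both flanking intron lengths; no mm9 genome was used, and printed coordinates are those of the deposited files. Tables were joined and drawn with Python 3.11.15, pandas 2.3.3, numpy 2.4.6 and matplotlib 3.10.9.

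The members, the 7 gene lists and the 10 marker lists were chosen with earlier results of these data known. Named exons were all those called where there were 16 or fewer, otherwise the 8 largest rises and 8 largest falls without overlap between groups, up to 4 of each list with the smallest p, and up to 5 genes with most called exons. Other called exons of a list or class, such as those of Ezh2, Ddx39, Whsc1, Sphkap, Ptch1, Rbm39, Dnm2, Cacnb3, Stx3 and Shank2, were named after their values were seen, as were the Rbm25 118 nt and Dlg1 97 nt exons in the comparisons of knockout with wild type. With 1 library left out, a group of 2 kept 1, which was assumed to vary like the other groups. Alternatives changed the read minimum, the reads added, the prior, the PSI limits, the minimum difference, the groups in the fit, the value added to cRPKM and its filter. Some called exons that enter the counts are not reported here by name.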

Additional observations from a re-analysis of the deposited data

Results flagged for a closer look

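In 4 cases the knockout effect took one direction at P1 and the other at P10, or differed between ages by the test of the interaction. The 62 nt exon of Scaf8, a gene for a protein that binds the RNA polymerase II tail, had 12, 10 and 12.31 in KO P1 against 18.7 and 12.9 in WT P1, and 17.8, 18.6 and 18.9 in KO P10 against 14.2 and 13.8 in WT P10, so that the effect was 8.9 points higher at P10 than at P1. The 86 nt exon of Mtap6, a microtubule-stabilising protein gene, had 18.4, 17.1 and 22.4 in KO P1 against 31.0 and 22.8 in WT P1, and 7.09, 6.74 and 5.26 in KO P10 against 2.96 and 3.38 in WT P10, a difference between the effects of 10.79 points. The 56 nt exon of Lepre1, a prolyl hydroxylase gene, had 26.98, 29.58 and 22.86 in KO P1 against 11.6 and 12.7 in WT P1, and 36.2, 29.6 and 27.3 in KO P10 against 43.3 and 74.4 in WT P10, a difference between the effects of -42.09 points. These exons were picked from the named ones by their separation. Every KO library lay to one side of the WT libraries at P1 and to the other at P10. That separation is therefore the rule of choice and not a result. Groups did not overlap in 21.7% of tested exons at P1 and 17.6% at P10, and the share separated in opposite directions was not counted. The unadjusted interaction p of limma was 0.0371, 0.0297 and 0.00487, and none passed the adjustment over all events.

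Gm10479, a predicted gene that hosts a 127 nt member, had a knockout effect on its level that differed between P10 and P1 by 5.66 on the log2 scale (SE 0.59, adjusted p = 0.00853 by limma). It was listed at 0 cRPKM in all 6 KO libraries and in both WT P10 libraries, at 29.6 and 82.2 in WT P1 and at 21.4, 11.6 and 15.7 in WT P30.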

How the results depend on the processing

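No paired analysis was possible because the library numbers in the labels are unique to each library. No called result reversed its direction under any alternative run. Called frame-shifting exons numbered 3 at P1, 4 at P10 and 7 averaged between KO and WT, 45 between KO P10 and KO P1, 31 between WT P10 and WT P1, 199 between WT P30 and WT P10 and 650 between WT P30 and WT P1. With a prior that follows no trend these became 0, 1, 3, 25, 13, 126, while WT P30 against WT P1 stayed within 1.5 times. With a prior trend on the mean log2 odds the first 5 became 0, 0, 4, 22 and 13. With no minimum PSI difference, 7 were called at P1, 15 averaged and 68 between KO P10 and KO P1. With mean PSI of 1 to 99 as the limits, 1 at P1, 3 averaged, 16, 13, 97 and 425 between ages in the order above. When other groups were left out of the fit, 1 at P1, 0 at P10, 12 between KO P10 and KO P1, 6 between WT P10 and WT P1 and 120 between WT P30 and WT P10. The cause of these shifts was not tested. With 20 reads as the minimum or 1 read added to each side, no count moved by over 1.5 times. With 0.1 added to cRPKM, 2 host genes were called on average, against 1.

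With 1 library left out, calls ranged over 0 (without WT P1 8) to 4 (without WT P1 9) at P1, 0 (without WT P10 5) to 6 (without WT P10 6) at P10, and 2 (without WT P10 5) to 8 (without KO P10 10) averaged. Between ages they ranged over 20 (without KO P10 10) to 93 (without KO P10 12) for KO P10 against KO P1, 9 (without WT P1 8) to 43 (without WT P1 9) for WT P10 against WT P1, 58 (without WT P10 6) to 153 (without WT P30 2) for WT P30 against WT P10, and 265 (without WT P1 8) to 541 (without WT P30 1) for WT P30 against WT P1. The interaction ranged over 0 to 3 (without WT P10 6). Called host genes ranged over 1 to 10 (without KO P1 14) at P1, 0 to 2 at P10, 1 to 3 averaged, 207 to 441 for KO P10 against KO P1, 52 to 117, 243 to 341 and 497 to 659 for the wild-type ages in the same order, and 1 to 2 for the interaction, against 2, 0, 1, 339, 155, 501, 875 and 1 with all libraries. Of named called exons, 30 of 47 kept their call without each library in turn between WT P30 and WT P1, 18 of 37 between WT P30 and WT P10, 4 of 18 between WT P10 and WT P1, 10 of 22 in KO P10 against KO P1, and 2 of 7, 0 of 3 and 0 of 4 between KO and WT averaged, at P1 and at P10. WT P1 and WT P10 hold 2 libraries each. The read minimum of 10 leaves wide counting error on the exons with fewest reads.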
